A study of Mus musculus with 8 samples.

Results

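Nucleoporins and nuclear transport receptors were followed through the last steps of sperm formation, from meiotic spermatocytes to haploid spermatids. Members were the gene models whose symbol begins with Nup, Kpna, Kpnb1, Ipo, Xpo, Tnpo, Ranbp, Rangap1 or Rangrf in the form set by a fixed pattern on the symbols. The pattern took 53 of the 56324 deposited models, with 52 distinct symbols. No model carried Rangrf as its leading symbol. Models that list Nup62 or Xpo4 after another gene lie outside the pattern.

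The nuclear pore complex is a ring-shaped channel through the nuclear envelope. Its scaffold is built from Y-shaped subcomplexes and an inner ring, and its passage is filled by nucleoporins rich in phenylalanine-glycine (FG) repeats. Cargo with a nuclear localization signal is bound by an importin alpha adaptor and carried by importin beta, while exportins carry cargo outward, and the small GTPase Ran sets the direction. Spermatids remodel and compact their nucleus, and members of the importin alpha family are known to change in the course of mouse spermatogenesis.

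RNA-seq libraries of polyadenylated RNA were made from germ cells of male C57BL/6 mice aged 12 weeks. Per the labels, 4 libraries came from spermatocytes and 4 from spermatids, both separated by sedimentation at unit gravity (Sta-put), and all 8 carry the genotype Sam68 -/-, a knockout of the RNA-binding protein encoded by Khdrbs1. No other genotype was analysed here, so each comparison is one of cell type within knockout animals. The labels do not say whether libraries came from separate animals or pools. A p-value here sets the difference between cell types against the spread of these 8 libraries within their cell type. That spread may be technical.

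Recovered reads numbered 49000266 to 93975960 per library. Khdrbs1 had 3808, 3421, 4319 and 4985 normalized counts in spermatocyte libraries and 651, 625, 854 and 1129 in spermatid libraries. The labels do not give which part of the gene is deleted, so the knockout cannot be read from these values. In spermatocyte libraries the mean log2 level was 10.53 to 11.11 for 8 spermatid markers and 12.99 to 13.85 for 8 spermatocyte markers. In spermatid libraries it was 15.37 to 15.64 and 11.86 to 12.19. Single spermatocyte markers did not all follow their list mean. Piwil1 and Pou5f2 were lower in spermatids without overlap, while Sycp1, Sycp3, Hormad1, Spag6 and Ccna1 overlapped between cell types. Ccnb1 was higher in spermatids, at 1375 to 2145 normalized counts against 337 to 1193. For Sycp1, spermatocyte library 4 (1653) lay below every spermatid library (8626 to 14192). Markers of other cells were also present. The 8 Sertoli markers summed to 24743 to 126598 normalized counts per spermatocyte library, against 1356 to 4986 per spermatid library. Clu made up most of each sum in spermatocytes, and the 7 others summed to 3378 to 16737 and 619.6 to 1519. Among these Dmrt1 went the other way, with 169 to 632 and 428 to 881. For 5 matched Leydig markers of 6 these sums were 3466 to 7212 and 174 to 1033. For 8 matched macrophage and blood markers of 9 they were 128 to 162 and 2040.2 to 4729.6, with Hba-a1 at 0 in all spermatocyte libraries and in 3 of spermatids, and Hbb-bs at 0 in the same 3. For 7 spermatogonial markers they were 2819 to 4922 and 4125 to 11746. Dazl was the largest of these in every library, and Uchl1 overlapped between cell types (256 to 754 and 241 to 808). Spermatid library 1 had the highest mean log2 level of its cell type for the Sertoli (7.45), Leydig (7.28), macrophage and blood (7.28), spermatogonial (9.22) and spermatocyte (12.19) lists.

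About as many members were higher as lower in spermatids. Of 52 members tested, 14 were called higher and 12 lower at a limma adjusted p below 0.05 and a log2 fold change of at least 1 in size, and 26 were not called. Over all 28735 models tested the same rule called 32.5% higher and 29.8% lower, and the shares among members were 26.9% and 23.1%. Of the 18497 models with a symbol, which every member has, 35.6% were higher and 21.1% lower. The median log2 fold change was 0.39 over the members, 0.25 over models with a symbol and -0.01 over all models. All 26 called members had groups without overlap, as did 94.0% of all called models and 66.4% of all tested models. Of the 26 others, 12 passed the adjusted p at less than 2-fold, 8 of them upward. The share of all models that did so is not given here. In bulk RNA, fewer cells of a type and less RNA per cell cannot be told apart.

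The balance depended on scaling. With values scaled to equal totals per library, 11 members were called higher and 17 lower, against 27.8% and 37.4% of all models, and with quantile normalization 11 and 16, against 29.1% and 36.3%. The median of all models then moved to -0.44 and -0.36, so fold changes here are relative to the authors' size factors. The short Xpo6 model, which lies within Xpo6, held 0 to 33.5 normalized counts and was left out by the filter of 10 normalized counts in 4 libraries.

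**Figure D1:**
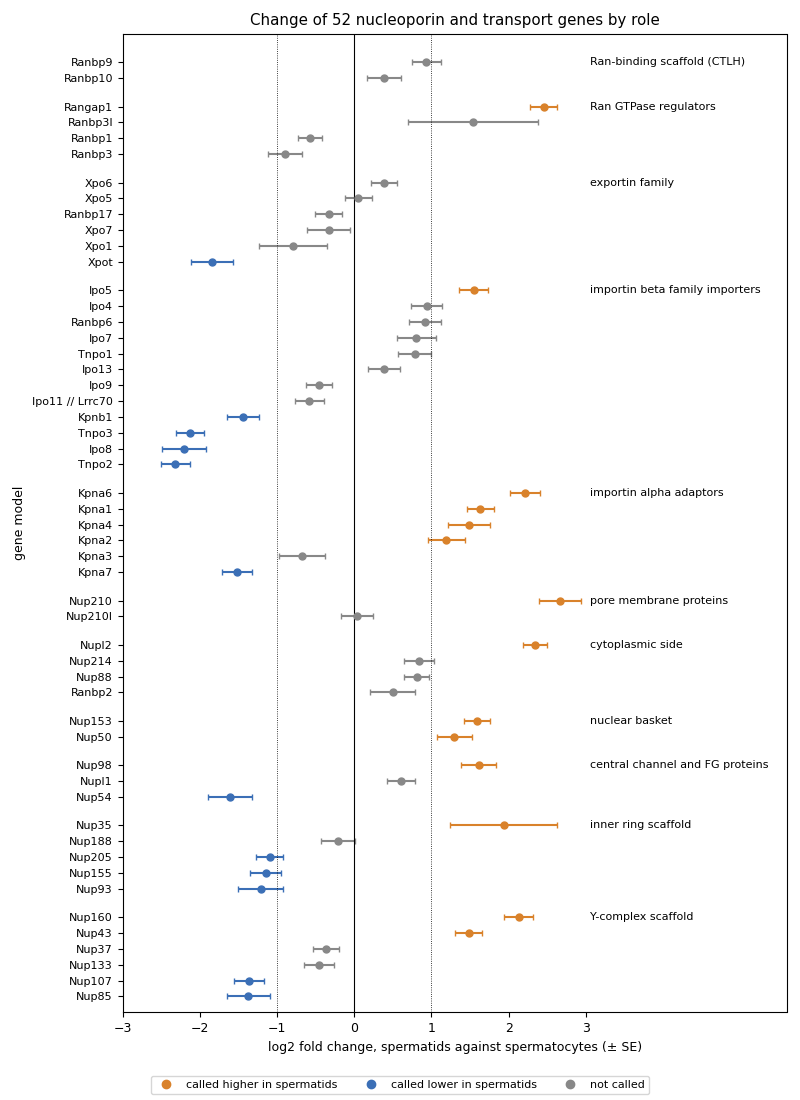
Log2 fold change of the 52 tested members between spermatids and spermatocytes, grouped by role, with bars for the standard error of the limma fit. Dotted lines mark a log2 fold change of 1 in either direction, and the 14 members called higher and 12 called lower lie in both pore and transport groups.

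Among the importin alpha adaptors, which bind classical localization signals, 4 of 6 members were higher in spermatids, 1 was lower and 1 was not called, beside 32.5% higher and 29.8% lower over all models. Kpna6 had 7925, 8059.9, 4968 and 7320.4 normalized counts in spermatocyte libraries and 25900.3, 33788, 35786 and 33746 in spermatid libraries. Every spermatid library lay above every spermatocyte library (limma log2 fold change 2.21, SE 0.20, adjusted p = 7.5e-07). Its close relative Kpna1 had 961, 1062, 1137 and 796 normalized counts in spermatocyte libraries and 2657, 3239, 3052 and 3250.0 in spermatid libraries, again without overlap (limma log2 fold change 1.63, SE 0.18, adjusted p = 3.8e-06). Both measured adaptors of this subfamily rose.

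The other subfamilies of importin alpha split. Kpna4 rose, with 8192, 8451, 5232 and 3349 normalized counts in spermatocyte libraries and 13373, 17314, 17928 and 17903 in spermatid libraries (limma log2 fold change 1.48, SE 0.27, adjusted p = 3.6e-04). It fell short of the call without spermatocyte libraries 3 and 4 (0.99) and with quantile normalization (0.92). Its relative Kpna3 had 1440.2, 2199, 2853 and 1089 normalized counts in spermatocyte libraries and 1545, 833, 1009 and 1163 in spermatid libraries, and these groups overlapped (limma log2 fold change -0.68, SE 0.30, adjusted p = 0.059). Spermatocyte library 3 was the highest of the 8 for Kpna3 and library 4 the lowest of its cell type for both genes. Kpna3 passed the call downward with equal totals (-1.11), quantile normalization (-1.03) and a GC trend removed (-1.18).

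Kpna2, an adaptor abundant in dividing cells, went from a mean of 10393 (SD 3085) to 23209 (SD 4420.3) normalized counts over 4 libraries of each cell type (limma log2 fold change 1.19, SE 0.25, adjusted p = 8.0e-04). It was below the fold threshold without spermatocyte library 3 (0.97), with equal totals (0.76) and with quantile normalization (0.63). Kpna7, best known from the mouse egg and early embryo, is covered by its model over 26.0% of the GENCODE gene. It fell, with 612, 724, 644 and 699.8 normalized counts in spermatocyte libraries and 212, 227, 245 and 244 in spermatid libraries (limma log2 fold change -1.53, SE 0.19, adjusted p = 1.6e-05). Its libraries were close to each other within each cell type.

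Per kilobase of annotated exon, Kpna2 made up 58.0% ± 8.86 in spermatocytes and 52.1% ± 2.72 in spermatids of the importin alpha RNA (SD, 4 libraries a cell type). The share of Kpna6 was 17.1% ± 1.17 in spermatocytes and 31.2% ± 1.41 in spermatids. Kpna4 held 11.6% ± 4.09 in spermatocytes and 12.1% ± 0.62 in spermatids, with one spermatocyte library, number 4, far below the rest at 5.58%. Kpna3 took 7.77% ± 4.87 in spermatocytes and 1.81% ± 0.82 in spermatids, and Kpna7 3.57% ± 0.68 in spermatocytes and 0.49% ± 0.06 in spermatids. Kpna2 was thus the leading adaptor in every library, and Kpna6 came next in every library. These shares were not tested.

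**Figure D2:**
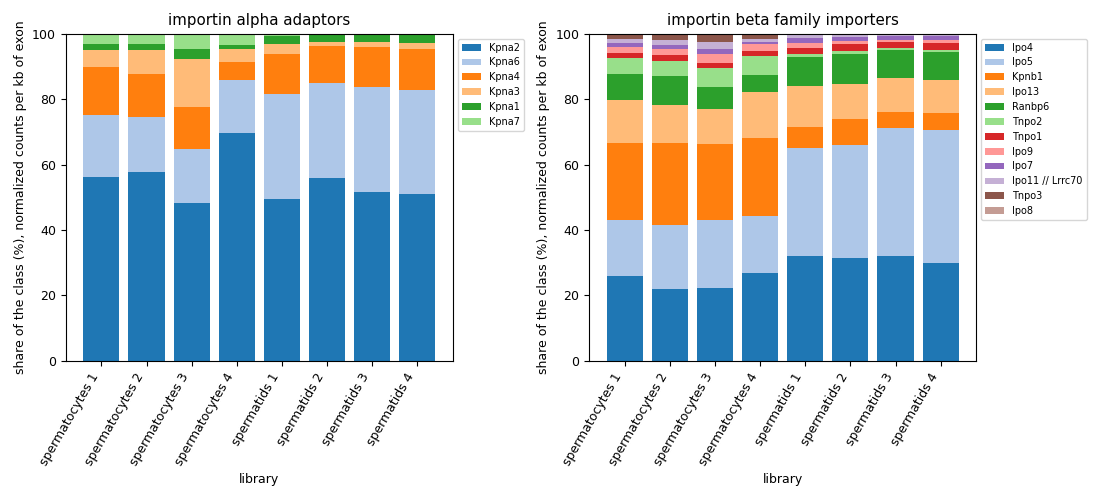
Share of each gene in the importin alpha class (left) and among the importin beta family importers (right), in percent of normalized counts per kb of annotated exon, for each of the 8 libraries. On the left the Kpna6 share is near 31% in spermatids against 17% in spermatocytes, and on the right Kpnb1 shrinks while Ipo5 grows.

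Of 12 importers of the importin beta family 1 rose (8.33%), 4 fell (33.3%) and 7 were not called. Over all models 32.5% were higher and 29.8% lower, and over models with a symbol 35.6% and 21.1%. The count of falls was near the share of all models and above that of models with a symbol. These differences were not tested. The adjusted p alone was passed by 11 of these importers and by 38 of the 52 tested members. The share of all models that passed it is not given here. Kpnb1, importin beta itself, the carrier that takes importin alpha and its cargo through the pore, had 40366, 42986, 29506 and 44767 normalized counts in spermatocyte libraries and 12278, 19587, 13526 and 12954 in spermatid libraries. All spermatid libraries lay below all spermatocyte libraries (limma log2 fold change -1.44, SE 0.20, adjusted p = 3.7e-05). Ipo5, an importer of histones and ribosomal proteins, rose, with 26549, 30503, 24183 and 29166 normalized counts in spermatocyte libraries and 58861, 80500.3, 96865 and 91096 in spermatid libraries (limma log2 fold change 1.55, SE 0.19, adjusted p = 1.1e-05). Per kilobase of exon, Kpnb1 held 24.0% ± 0.79 in spermatocytes and 6.05% ± 1.20 in spermatids of this class, and Ipo5 18.7% ± 1.89 in spermatocytes and 36.9% ± 3.68 in spermatids (SD, 4 libraries a cell type). Ipo5 had the highest level of all members per kilobase in spermatids, at 13636 normalized counts per kb.

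The largest fall was that of a transportin. Tnpo2, an importer of RNA-binding proteins closely related to Tnpo1, had 7996, 7589.8, 7238 and 10248 normalized counts in spermatocyte libraries and 1623, 2159, 1474 and 1396 in spermatid libraries. All 4 spermatid libraries lay far below all spermatocyte libraries (limma log2 fold change -2.32, SE 0.19, adjusted p = 3.8e-07). Tnpo3, which imports SR splicing factors, had 4952, 5598, 5539 and 5342 normalized counts in spermatocyte libraries and 1634, 1262, 1054 and 1041 in spermatid libraries (limma log2 fold change -2.12, SE 0.18, adjusted p = 5.5e-07). Tnpo1 itself had 4946, 5397, 3054 and 5402 normalized counts in spermatocyte libraries and 6320.1, 9334, 8099 and 8059.6 in spermatid libraries; these did not overlap, but the difference was under 2-fold (limma log2 fold change 0.78, SE 0.21, adjusted p = 0.0058).

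Ipo8 and Ipo7 are close relatives. Ipo8 had 440.0, 431, 655 and 510.3 normalized counts in spermatocyte libraries and 178, 84.1, 94.6 and 94.7 in spermatid libraries (limma log2 fold change -2.21, SE 0.29, adjusted p = 1.9e-05). Ipo7 had 3010.1, 3743, 3658 and 1582 normalized counts in spermatocyte libraries and 5218, 5069.8, 4714 and 4825 in spermatid libraries and was not called (limma log2 fold change 0.80, SE 0.25, adjusted p = 0.012). For Ipo8 the highest spermatocyte library was number 3 and the highest spermatid library was number 1, which were also the libraries with the highest mean log2 level of Sertoli markers in their groups (9.11, 9.67, 11.25 and 10.10 in spermatocyte libraries, 7.45, 5.94, 7.36 and 7.24 in spermatid libraries). For Kpna3, Xpo1, Xpo7 and Nup54 the highest libraries of each cell type were the same, and for Nup85 and Nup93 they were spermatocyte library 4 and spermatid library 1. Spermatid library 1 was also the highest of its cell type for the Leydig, macrophage, spermatogonial and spermatocyte lists. The part of RNA from any of these cells in these results was not tested.

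The remaining importers changed by less than 2-fold. Ipo4 had a log2 fold change of 0.94 ± 0.20 SE, Ranbp6 of 0.91 ± 0.21 SE and Ipo13 of 0.39 ± 0.21 SE. On the other side stood Ipo9 at -0.46 ± 0.17 SE and the joint model of Ipo11 and Lrrc70 at -0.58 ± 0.19 SE, whose reads cannot be assigned to Ipo11 alone and which was called lower with equal totals (-1.02). Ranbp6, a relative of Ipo5, had 9337, 10329.8, 6031 and 6383 normalized counts in spermatocyte libraries and 12256, 16239, 15938 and 14739 in spermatid libraries, without overlap. Ipo4 was called higher without spermatocyte library 4 (1.05), without spermatid library 1 (1.02) and with a GC trend removed (1.21), and Ranbp6 without spermatocyte library 2 (1.05) or spermatid library 1 (1.00).

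In the exportin family 1 of 6 tested members fell and 5 were not called, beside 32.5% higher and 29.8% lower over all models. Xpot, the exporter of transfer RNA, had 1314, 1445, 936 and 2264 normalized counts in spermatocyte libraries and 356, 549, 347 and 355 in spermatid libraries, without overlap (limma log2 fold change -1.84, SE 0.27, adjusted p = 6.3e-05). Xpo1, the main exporter of proteins with a leucine-rich export signal, had 6046, 8050.1, 9182 and 1609.8 normalized counts in spermatocyte libraries and 3865, 2947, 2587 and 2682 in spermatid libraries. Spermatocyte library 4 held far less Xpo1 RNA than any other library, and the groups overlapped with it and not without it (limma log2 fold change -0.80, SE 0.44, adjusted p = 0.12). The same library was low for some of the spermatocyte markers, with Sycp1 at 1653 normalized counts, Sycp3 at 3303 and Hormad1 at 1395. Libraries 1 to 3 of that cell type held 12680 to 26690, 15595 to 17490 and 6447 to 9289 of these. Other spermatocyte markers were not low in library 4. It was the highest of its cell type for Piwil1 (166551), Spag6 (36360), Ccna1 (25279) and Pou5f2 (14909). For Ccnb1 it held 1080, within the 337 to 1193 of libraries 1 to 3. The part of any of these markers in the Xpo1 value was not tested. Without library 4 Xpo1 was called lower (-1.36, adjusted p = 1.2e-04). It was also called lower by edgeR (-1.02) and DESeq2 (-1.04), without spermatocyte libraries 3 and 4 (-1.23), with equal totals (-1.23), quantile normalization (-1.26) and a GC trend removed (-1.23).

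Xpo6, the exporter of actin, was the exportin with the most RNA per kilobase in both cell types, with 46365, 43041, 35202 and 49102 normalized counts in spermatocyte libraries and 49138, 60857, 62118 and 54660.5 in spermatid libraries (limma log2 fold change 0.39, SE 0.17, adjusted p = 0.054). Its share of the class per kilobase was 54.1% ± 7.13 in spermatocytes and 70.6% ± 2.58 in spermatids (SD, 4 libraries a cell type). Xpo5, which exports microRNA precursors, had 1636, 1684, 1259 and 1953 normalized counts in spermatocyte libraries and 1576, 1819.5, 1639 and 1675 in spermatid libraries (limma log2 fold change 0.05, SE 0.18, adjusted p = 0.8). Ranbp17, an exportin relative known for its testis expression, had 6762, 7268, 5013 and 6226 normalized counts in spermatocyte libraries and 4154, 5678, 5397 and 4784 in spermatid libraries, and Xpo7 had 1392, 2058, 3252 and 2157 normalized counts in spermatocyte libraries and 2503, 1276, 1504 and 1655 in spermatid libraries. Both overlapped between cell types (-0.33 ± 0.18 SE for Ranbp17 and -0.33 ± 0.27 SE for Xpo7). A joint model of Lats2 and Xpo4, outside the pattern, had 8098, 8072, 5739.8 and 6994 normalized counts in spermatocyte libraries and 31205, 36451, 43981 and 39777 in spermatid libraries (limma log2 fold change 2.39, SE 0.18, adjusted p = 1.8e-07), and its reads cannot be assigned to either gene.

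Among regulators of Ran, Rangap1, the activator of GTP hydrolysis by Ran on the cytoplasmic side, stood apart. It had 1442, 1166, 1304 and 1588 normalized counts in spermatocyte libraries and 6757, 6539.8, 8558 and 8362 in spermatid libraries. The cell types were far apart in all libraries (limma log2 fold change 2.46, SE 0.17, adjusted p = 1.1e-07). The Rangap1 model spans 62.2% of that gene in the GENCODE annotation. Ranbp1, a cofactor of the same hydrolysis step, went from a mean of 10611 (SD 876) to 7143 (SD 834) normalized counts over 4 libraries of each cell type (limma log2 fold change -0.58, SE 0.16, adjusted p = 0.0061). Ranbp3, a cofactor of Xpo1, had 11706, 10842, 7677 and 15326 normalized counts in spermatocyte libraries and 5001, 7542, 6194 and 5273 in spermatid libraries (limma log2 fold change -0.90, SE 0.22, adjusted p = 0.003). Neither reached 2-fold, and Ranbp3 was called lower with equal totals (-1.34), with quantile normalization (-1.42) and without spermatocyte library 3 (-1.08) or spermatid library 2 (-1.02). Ranbp1 was called lower with equal totals (-1.01) and quantile normalization (-1.12).

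Ranbp3l was near the detection floor of 3 reads, which is 2.42 to 4.50 normalized counts per library. Its values were 0, 14.7, 11.2 and 0 normalized counts in spermatocyte libraries and 10.7, 7.48, 10.5 and 10.9 in spermatid libraries, with 0 in spermatocyte libraries 1 and 4, and no call was made (limma adjusted p = 0.12). It was called higher without spermatocyte library 2 (adjusted p = 0.022) or 3 (adjusted p = 0.042). Ranbp9 and Ranbp10, scaffold proteins of the CTLH ubiquitin ligase that bear a Ran-binding name, were both uncalled. Ranbp9 had 31779.9, 32559, 23592 and 23754 normalized counts in spermatocyte libraries and 41045, 60911, 58423 and 52609 in spermatid libraries, without overlap (limma log2 fold change 0.93, SE 0.19, adjusted p = 7.7e-04). It passed 2-fold without spermatocyte library 2 (1.01), without spermatid library 1 (1.05) and with a GC trend removed (1.07). Ranbp10 had 5523, 5642, 3733 and 6859 normalized counts in spermatocyte libraries and 5027, 8467, 7871 and 6935 in spermatid libraries, which overlapped (0.39 ± 0.23 SE).

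Of 6 Y-complex members 2 rose, 2 fell and 2 were not called, and of 5 inner ring members 1 rose, 3 fell and 1 was not called. Over all models 32.5% were higher and 29.8% lower, and the Y-complex counts were at about that share. Over models with a symbol 35.6% were higher and 21.1% lower. Nup160 had 521, 580.0, 617 and 409.9 normalized counts in spermatocyte libraries and 2065, 2307, 2518 and 2366 in spermatid libraries, without overlap (limma log2 fold change 2.13, SE 0.19, adjusted p = 6.6e-07), and Nup43 rose by 1.48 on the log2 scale. Nup85 had 2810.2, 2749, 3562 and 4715 normalized counts in spermatocyte libraries and 2251, 924, 1132 and 1220.1 in spermatid libraries, with its highest spermatid value, in library 1, below the lowest spermatocyte value (limma log2 fold change -1.37, SE 0.28, adjusted p = 7.0e-04). Nup107 was at -1.36 ± 0.19 SE, while Nup37 (-0.36 ± 0.17 SE) and Nup133 (-0.45 ± 0.20 SE) were not called. Members of one subcomplex thus lay on both sides of 0 under the deposited scaling. Of its proteins named outside the pattern, Seh1l was called higher (limma log2 fold change 1.21, SE 0.27, adjusted p = 0.0014). It was under 2-fold with equal totals (0.77), quantile normalization (0.87) and a GC trend removed (0.89). Sec13 (-0.15 ± 0.18 SE) and Ahctf1 (0.19 ± 0.17 SE) were not called.

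Nup205, an inner ring protein, had the highest level of all members per kilobase of exon in spermatocytes (10873 normalized counts per kb). It had 95503, 109829.9, 87366 and 112053 normalized counts in spermatocyte libraries and 40433, 57729.9, 47967 and 43813 in spermatid libraries (limma log2 fold change -1.10, SE 0.17, adjusted p = 9.7e-05). Nup155 was at -1.15 ± 0.20 SE and Nup93 at -1.21 ± 0.29 SE. For Nup93 the values were 3596, 3765, 6839 and 6847 normalized counts in spermatocyte libraries and 3527, 1589, 2007 and 1950.4 in spermatid libraries, and it fell short of the call without spermatocyte libraries 3 and 4 (-0.77), its highest libraries. Nup188 overlapped between cell types (-0.21 ± 0.22 SE).

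The model named Nup35 spans 4.8% of that gene in the GENCODE annotation and held few reads. It had 37.1, 39.3, 35.8 and 2.28 normalized counts in spermatocyte libraries and 66.3, 86.9, 75.1 and 87.1 in spermatid libraries (limma log2 fold change 1.94, SE 0.70, adjusted p = 0.025). Spermatocyte library 4, at 2 reads, was under the floor, and the adjusted p was 0.052 without spermatid library 2, 0.055 without spermatid library 4 and 0.081 with equal totals. A joint model of Dusp19 and Nup35, outside the pattern, had 2269, 2357, 1579 and 2540.2 normalized counts in spermatocyte libraries and 2762, 3669, 3785 and 3808 in spermatid libraries and was not called (limma log2 fold change 0.69, SE 0.20, adjusted p = 0.0071).

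Proteins of the channel, the nuclear basket and the cytoplasmic face rose in 4 of 9 cases and fell in 1, beside 32.5% and 29.8% of all models. Tpr, the main filament protein of the basket, whose name lies outside the pattern, fell as well. Nup98, whose transcript also encodes the Y-complex protein Nup96, had 23327, 25757, 16253 and 22785 normalized counts in spermatocyte libraries and 44371, 76742, 82635 and 68741 in spermatid libraries (limma log2 fold change 1.61, SE 0.22, adjusted p = 3.6e-05). Nup153, which anchors the nuclear basket, had 3901, 3866, 3361 and 4962 normalized counts in spermatocyte libraries and 10547, 11532, 13515 and 12610.2 in spermatid libraries (limma log2 fold change 1.59, SE 0.17, adjusted p = 4.0e-06), and Nup50, a basket protein that helps release importin alpha cargo, rose by 1.30 on the log2 scale. Nup50 was under 2-fold with equal totals (0.86) and quantile normalization (0.73). Tpr had 3663, 5218, 5083 and 3073 normalized counts in spermatocyte libraries and 2385, 1722, 1747 and 1989.6 in spermatid libraries, without overlap (limma log2 fold change -1.10, SE 0.21, adjusted p = 4.7e-04). It was under 2-fold without spermatocyte library 2 (-0.99) or 3 (-0.999). Of these 3 basket proteins 2 were thus higher and 1 lower under the deposited scaling.

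On the cytoplasmic face, where export complexes are taken apart, Nupl2 led. This FG protein works with the messenger RNA export factor Gle1. Nupl2 had 3022, 3091, 2948 and 3318 normalized counts in spermatocyte libraries and 13017, 15968, 17585 and 16658 in spermatid libraries (limma log2 fold change 2.34, SE 0.16, adjusted p = 7.0e-08). The spermatocyte libraries lay within a narrow range, far below all spermatid libraries. Nup214 (0.84 ± 0.19 SE), Nup88 (0.81 ± 0.16 SE) and Ranbp2 (0.50 ± 0.29 SE) were not called, though Nup214 was called higher with a GC trend removed (1.09).

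Nup54, which forms the central channel with Nupl1 and Nup62, fell. It had 898, 937, 1337 and 1179 normalized counts in spermatocyte libraries and 627, 243, 303 and 331 in spermatid libraries, where spermatid library 1 held more than the others (limma log2 fold change -1.61, SE 0.29, adjusted p = 2.8e-04). Nupl1 was at 0.60 ± 0.19 SE and not called. A joint model of Gm21948, Il4i1 and Nup62, outside the pattern, had 28671, 27975, 21567 and 30705 normalized counts in spermatocyte libraries and 25092, 34415, 32872 and 28879.6 in spermatid libraries (limma log2 fold change 0.16, SE 0.18, adjusted p = 0.44).

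Nup210, a pore protein anchored in the membrane, showed the largest rise of all members. It had 191, 132, 214 and 293 normalized counts in spermatocyte libraries and 1730.3, 1077, 1237 and 1113 in spermatid libraries (limma log2 fold change 2.66, SE 0.27, adjusted p = 2.3e-06). The highest spermatid library was number 1, which also held the highest mean log2 level of macrophage and blood markers (7.28, 5.96, 5.75 and 6.43 in spermatid libraries 1 to 4, against 3.54 to 3.89 in spermatocyte libraries). This library was also the highest for spermatogonial markers (9.22, 7.90, 8.17 and 8.38, against 6.16 to 7.61 in spermatocyte libraries). Among these Stra8 had 1983, 951, 1094 and 993 normalized counts in spermatid libraries and 96.2 to 311 in spermatocyte libraries. Dazl, Uchl1, Zbtb16 and Sohlh1 of the same list overlapped between cell types. The part of either list in the rise of Nup210 was not tested. Nup210l, its germline relative, had 12359.6, 12843, 9320.4 and 13941 normalized counts in spermatocyte libraries and 8801, 14722, 14036 and 12399 in spermatid libraries, with overlap (limma log2 fold change 0.03, SE 0.20, adjusted p = 0.89). Per kilobase of exon Nup210l stood at 2118 normalized counts in spermatocytes and 2184 in spermatids, far above Nup210 at 19.8 and 123.

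**Figure D3:**
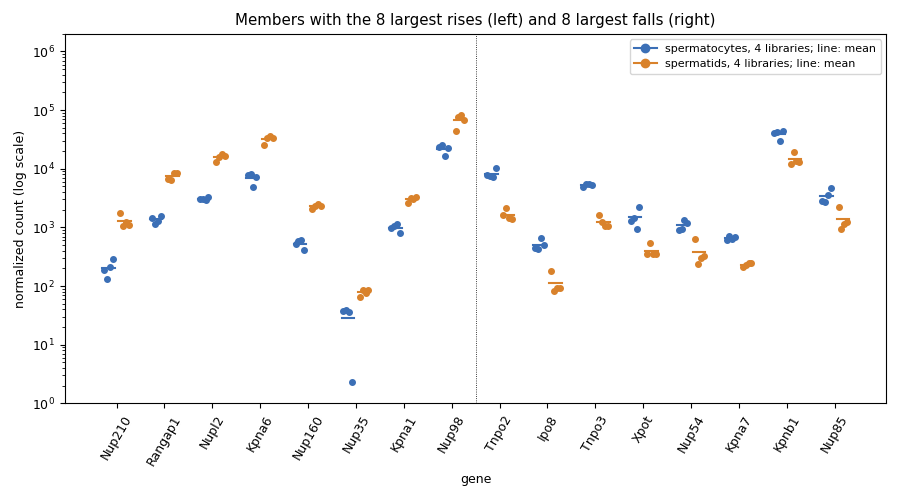
Normalized counts on a log axis of the members with the 8 largest rises (left of the dotted line) and the 8 largest falls (right), with 1 point per library and lines for the means of 4. The 16 genes were picked by the size of their change, and cell types do not overlap for any of them, as for 94.0% of all called models. The lowest point is the 2.28 normalized counts of Nup35 in spermatocyte library 4.

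Promoter windows of 4 members are shown to set sequence beside rises and falls of transport genes: the largest rise, the rise with a CRE, the largest fall and a fall with ETS matches. RefSeq (GRCm38.p6, the build of mm10) gave a window of 250 bases before and 50 after the start for 42 of the 52 tested members. Windows are written 5′ to 3′ on the strand of the gene, and capitals mark matches, on either strand, to the CRE TGACGTCA, the NRF1 motif, the ETS motif CCGGAAGT, the NF-Y box CCAAT or the Sp box GGGCGG. Nup210 (chr6:91116777-91117076, minus strand) and Nupl2 (chr5:24164713-24165012, plus strand) rose, and Tnpo2 (chr8:85036643-85036942, plus strand) and Tnpo3 (chr6:29609800-29610099, minus strand) fell.
Nup210: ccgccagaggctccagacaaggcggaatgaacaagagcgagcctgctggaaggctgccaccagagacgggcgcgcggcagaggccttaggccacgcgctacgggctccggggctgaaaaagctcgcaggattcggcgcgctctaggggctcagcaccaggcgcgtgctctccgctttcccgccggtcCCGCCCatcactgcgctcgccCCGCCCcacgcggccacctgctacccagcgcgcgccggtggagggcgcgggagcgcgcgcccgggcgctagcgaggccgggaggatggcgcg
Nupl2: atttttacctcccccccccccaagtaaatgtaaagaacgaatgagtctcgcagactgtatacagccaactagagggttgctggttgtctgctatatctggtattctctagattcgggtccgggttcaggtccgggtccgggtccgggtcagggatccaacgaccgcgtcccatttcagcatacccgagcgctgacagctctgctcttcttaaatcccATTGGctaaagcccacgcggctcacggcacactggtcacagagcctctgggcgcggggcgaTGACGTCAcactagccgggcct
Tnpo2: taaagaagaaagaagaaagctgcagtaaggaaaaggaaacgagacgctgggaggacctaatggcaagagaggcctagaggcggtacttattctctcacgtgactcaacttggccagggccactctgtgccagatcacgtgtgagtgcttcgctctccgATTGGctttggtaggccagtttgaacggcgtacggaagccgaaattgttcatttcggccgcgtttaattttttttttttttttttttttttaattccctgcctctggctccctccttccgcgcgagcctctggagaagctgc
Tnpo3: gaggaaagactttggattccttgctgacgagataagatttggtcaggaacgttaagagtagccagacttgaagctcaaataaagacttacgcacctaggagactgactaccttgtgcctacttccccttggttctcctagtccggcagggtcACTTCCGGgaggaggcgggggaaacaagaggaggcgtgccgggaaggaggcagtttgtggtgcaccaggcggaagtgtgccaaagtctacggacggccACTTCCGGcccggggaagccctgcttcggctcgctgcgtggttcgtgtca

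The window of Nupl2 holds the full CRE, the binding sequence of the CREB and CREM family, and an NF-Y box. This CRE lies in the 50 bases after the start, and the NF-Y box lies before it. The window of Nup210 has 2 Sp boxes, that of Tnpo2 an NF-Y box, and that of Tnpo3 has 2 ETS matches, 1 of them next to the start. Windows of Rangap1, a larger rise than Nupl2, and of Ipo8, a larger fall than Tnpo3, are not shown. The first has 1 Sp box, and the second has no match to any of these motifs. Over members, the CRE was found in 1 of 10 windows of those called higher, 0 of 11 called lower and 3 of 21 not called, against 1.88% of 27025 gene promoters. The ETS motif was in 0 of 10, 3 of 11 (Nup54, Nup155 and Tnpo3) and 1 of 21, against 1081 of the 27025. The NRF1 motif was in 1 of 10, 1 of 11 and 2 of 21, against 4.78% of all. NF-Y boxes were in 6 of 10, 5 of 11 and 9 of 21 (37.9% of all), and Sp boxes in 8 of 10, 6 of 11 and 14 of 21 (35.9% of all). The match is one of letters, and no motif overlapped another in the 4 windows shown.

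Ratios between related members were set side by side for the cell types, from the values given above. How often pairs of unrelated genes shift was not examined. Taken singly, 66.4% of all tested models had groups without overlap, so a shift cannot be read as a property of related genes. The log2 ratio of Tnpo2 to Tnpo1 was 0.84 (SD 0.32) in the 4 spermatocyte libraries and -2.26 (SD 0.27) in the 4 of spermatids, so the sign was opposite in the 2 cell types. The ratio of Ipo8 to Ipo7 was -2.50 (SD 0.63) in the 4 spermatocyte libraries and -5.51 (SD 0.45) in the 4 of spermatids, and that of Kpna4 to Kpna3 was 1.74 (SD 0.68) in the 4 spermatocyte libraries and 3.90 (SD 0.55) in the 4 of spermatids. For Nup210l to Nup210 it was 5.90 (SD 0.52) in the 4 spermatocyte libraries and 3.27 (SD 0.63) in the 4 of spermatids, and the cell types did not overlap in any of these pairs.

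Smaller shifts, also without overlap, were seen for Ranbp10 to Ranbp9, at -2.38 (SD 0.39) in the 4 spermatocyte libraries and -2.92 (SD 0.08) in the 4 of spermatids, and for Ranbp6 to Ipo5, at -1.82 (SD 0.33) in the 4 spermatocyte libraries and -2.45 (SD 0.19) in the 4 of spermatids. Kpna6 to Kpna1 was at 2.82 (SD 0.48) in the 4 spermatocyte libraries and 3.40 (SD 0.11) in the 4 of spermatids. Ranbp17 to Xpo7 overlapped, at 1.56 (SD 0.70) in the 4 spermatocyte libraries and 1.56 (SD 0.61) in the 4 of spermatids, and Ranbp3l to Ranbp3 overlapped as well, since Ranbp3l was near the floor. These are ratios of counts that were not divided by length, so a shift between cell types can be read but not which gene holds more RNA. The ratios were not tested.

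**Figure D4:**
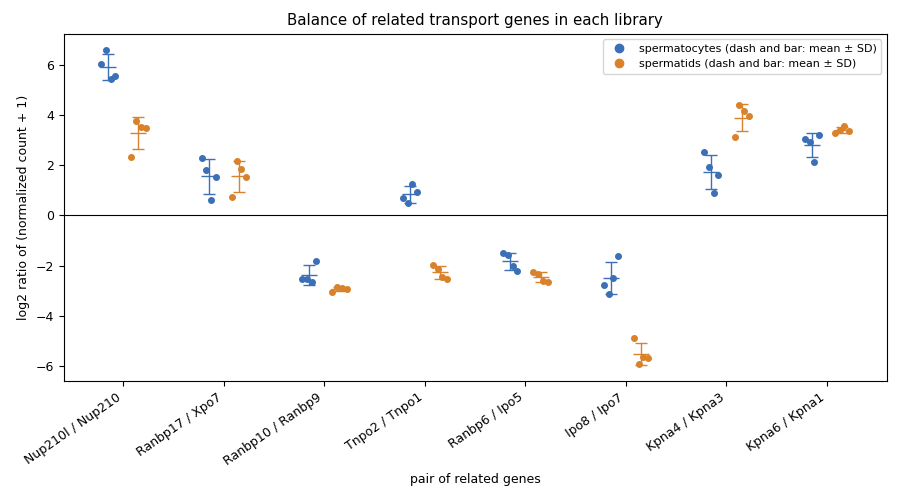
Log2 ratio of normalized counts (with 1 added) for 8 pairs of related members in each of the 8 libraries, with the mean and SD of 4 per cell type. Tnpo2 over Tnpo1 changes from positive to negative, Ipo8 over Ipo7 and Nup210l over Nup210 drop, and Kpna4 over Kpna3 climbs.

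Other genes of nuclear transport, from a list of 37 (36 found in the table, 1 by synonym), split evenly as well under the deposited scaling. Of 36 tested 8 rose and 9 fell, beside the 32.5% and 29.8% of all models, with a median log2 fold change of -0.06. With equal totals 5 rose and 10 fell, and with quantile normalization 5 and 11. Nxf2, an X-linked relative of the messenger RNA exporter Nxf1, had 213, 178, 315 and 159.8 normalized counts in spermatocyte libraries and 3245, 2529.7, 2930.4 and 3048 in spermatid libraries (limma log2 fold change 3.80, SE 0.23, adjusted p = 3.1e-08). Hikeshi, the importer of Hsp70 proteins, deposited as l7Rn6, had 45.9, 39.3, 54.8 and 91.3 normalized counts in spermatocyte libraries and 486, 494, 522 and 503 in spermatid libraries (limma log2 fold change 3.17, SE 0.29, adjusted p = 8.5e-07). Nxt2, a partner of the Nxf proteins, had 117, 186, 363 and 145 normalized counts in spermatocyte libraries and 1068, 835, 727 and 804 in spermatid libraries (limma log2 fold change 2.20, SE 0.32, adjusted p = 5.7e-05). None of these 3 overlapped between cell types.

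The largest falls on that list were those of Nxf3, Alyref and Pcid2. Nxf3, an X-linked member of the Nxf family, had 1209.7, 2425, 6278 and 2377 normalized counts in spermatocyte libraries and 639, 247, 456 and 455 in spermatid libraries (limma log2 fold change -2.59, SE 0.43, adjusted p = 1.6e-04), and its highest library was spermatocyte library 3, which had the most Sertoli marker RNA, whose part was not tested. Alyref, an adaptor of messenger RNA export, had 2401, 2694, 3347 and 3499 normalized counts in spermatocyte libraries and 1208, 650.4, 612 and 676 in spermatid libraries (limma log2 fold change -1.96, SE 0.24, adjusted p = 1.1e-05). Pcid2, a subunit of the TREX-2 export complex, had 10676, 11037, 9318 and 13643 normalized counts in spermatocyte libraries and 3058, 4436, 3661 and 3042 in spermatid libraries (limma log2 fold change -1.66, SE 0.19, adjusted p = 5.6e-06). All 3 fell without overlap. Cse1l, which returns importin alpha to the cytoplasm, rose by 1.55 on the log2 scale, and Nutf2, which returns Ran to the nucleus, fell by 1.41. Gle1 rose by 1.21, and was at 0.78 with equal totals and 0.78 with quantile normalization. Ran itself had 13804, 11541, 7481 and 13034 normalized counts in spermatocyte libraries and 9654, 13373, 12185 and 10014 in spermatid libraries, with overlap (limma log2 fold change 0.01, SE 0.21, adjusted p = 0.98). These genes beyond the first 6 were chosen after their values were seen.

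Libraries of a cell type did not agree equally on the members. Among spermatocytes, library 3 gave the lowest value for 28 of 52 members and library 4 the highest for 24. Across the 52 members, the deviation of library 4 from the median of the other spermatocyte libraries had a Spearman correlation of 0.71 with the GC content of the transcript, against 0.27, -0.59 and -0.32 for libraries 1, 2 and 3. The members share these libraries, so the correlation is a description. Of 9 members under 42% GC, a limit chosen after seeing the data, 6 were lowest in library 4, Xpo1, Kpna3 and Kpna4 among them, and of the other 43 members 5 were. With a smooth GC trend removed from each library, 17 members were called higher and 14 lower, against 35.7% and 21.3% of the 18170 models with a GC value. The median log2 fold change was then 0.16 over the members and 0.26 over those models. Kpna4 remained called at 1.02 and Ipo5 at 1.46. Members called higher had a median GC content of 46.0%, those called lower 47.7%, and those not called 46.7%.

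**Figure D5:**
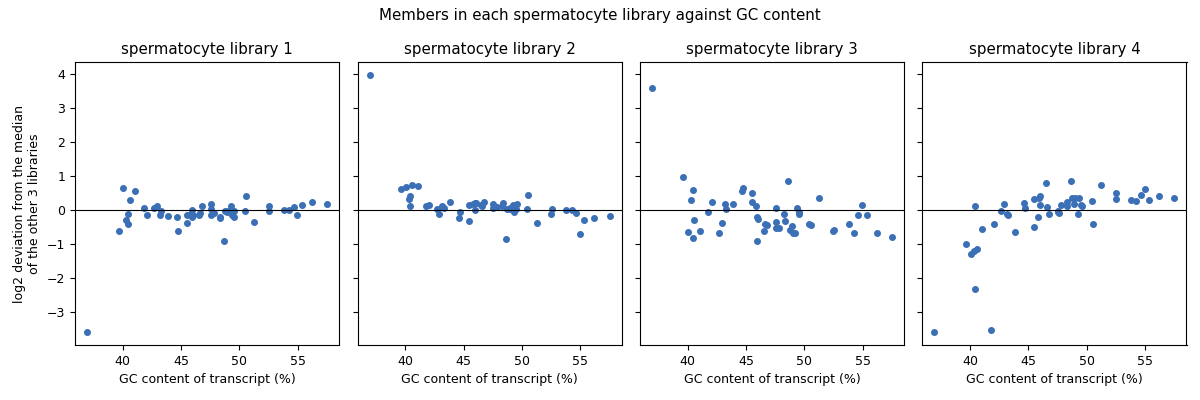
Log2 deviation of each of the 52 members in one spermatocyte library from the median of the other 3, against the GC content of the transcript in percent, 1 point per member. In library 4 most members of low GC content lie below 0, where the Spearman correlation is 0.71, and in library 2 most lie above it (-0.59).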

How the data were processed

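The authors deposited 1 table of normalized counts, a signal in which reads on each model are scaled by 1 size factor for each library. The deposited table names DESeq and, per the file headers, uses mm10 coordinates. Per the submitters' processing notes, tools included STAR 2.4.0, Picard, SAMtools and FastQC. The kit is stranded, per the labels' protocols. How reads were counted and whether by strand is not given in the sources used here, so reads of overlapping genes may be mixed. Of the members, 9 overlap a model with over 10% of their level (Kpna1, Nup214, Nup35, Nupl1, Ranbp1, Ranbp17, Ranbp3l, Xpo7 and the short Xpo6 model), and GENCODE M21 names 12 pseudogene copies of Ranbp2. A further 8 columns of per-sample values were not used.

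Values above 0 were whole multiples of 1 step per library (100% within 10% of the step), which gave back whole reads. Replicates differed beyond sampling noise (smallest chi-square per degree of freedom 12.2). Models reaching 10 normalized counts in 4 or more libraries were tested on log2(normalized count + 1) with limma 3.58.1 in R 4.3.3, with trend and robust moderation and no covariate, and p-values were adjusted by Benjamini-Hochberg over all 28735 models. The added 1 understates fold changes of low genes. Precision is limited by 4 libraries a group, and the floor of 3 reads covers counting error only. Alternatives included edgeR 4.0.16 and DESeq2 1.42.0 on the recovered counts. Exon lengths and GC content came from GENCODE M21 (GRCm38), with exons joined over all transcripts, which may be longer than what germ cells use. Sequences are from RefSeq, GRCm38.p6, with the first window listed for a gene.

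Members, gene lists and tests were chosen with earlier results of these data known. Values in every library are given for the 8 largest rises and 8 largest falls, the member with the largest change in each of 11 roles (the most abundant where none was called), members of 9 related pairs, and the 3 largest rises and falls of the other list. Further genes were named after their values were seen. Values per library are in the order of libraries 1 to 4, which follows their records and has no other meaning.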

Additional observations from a re-analysis of the deposited data

Results flagged for a closer look

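In 104 groups of 4 libraries (52 members in 2 cell types), 8 held a library far from the other 3, where chance gives about 1 in 20 groups. Nup35 had 2.28 normalized counts in spermatocyte library 4, against 35.8 to 39.3 in the others. Nup155 was low in spermatocyte library 3, at 1135, against 1763 to 1819.8. Among spermatids, library 1 was low for Kpna4 (13373 against 17314 to 17928) and Ranbp1 (5898 against 7439 to 7638), and high for Ipo8 (178 against 84.1 to 94.7). Spermatid library 2 was high for Kpnb1 (19587 against 12278 to 13526) and Xpot (549 against 347 to 356), and low for Ranbp3l (7.48 against 10.5 to 10.9).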

How the results depend on the processing

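Of 14 members called higher 10 were called under every alternative run, and of 12 called lower 11 were. Replicates left out one at a time gave 13 to 17 members higher and 12 to 13 lower, beside 31.7% to 32.6% and 29.0% to 30.2% of all models, with a median log2 fold change of the members of 0.20 to 0.43. That median was -0.051 with equal totals, -0.15 with quantile normalization, 0.16 without spermatocyte libraries 3 and 4 and 0.16 with a GC trend removed. Counts of the other transport genes called higher were 5 with equal totals and 5 with quantile normalization. Changes of sign were confined, among members and Ran, to values that were not called: with equal totals Ipo13 (-0.050), Nup210l (-0.40), Ranbp10 (-0.051), Xpo5 (-0.38), Xpo6 (-0.047) and Ran (-0.43), and with quantile normalization Ipo13 (-0.19), Nup210l (-0.54), Ranbp10 (-0.094), Xpo5 (-0.29), Xpo6 (-0.10) and Ran (-0.57). Ran was at -0.014 with edgeR and -0.014 with DESeq2, at -0.17 without spermatocyte libraries 3 and 4 and at -0.042 with a GC trend removed, where Nup188 was at 0.060. Nup210l was at -0.040 without spermatocyte libraries 3 and 4. With replicates left out, ranges were -0.089 to 0.19 for Nup210l, -0.065 to 0.15 for Xpo5 and -0.19 to 0.11 for Ran. The cause of these shifts was not tested, other than that a scaling moves all genes together. The alternative over models with a GC value was added after seeing the data. No paired analysis was possible because the labels give no replicate numbers that the cell types share.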
